A study of Mus musculus with 18 samples.

Results

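The transcripts described here are those of 10 mouse genes that encode neutrophil granule proteins and abundant neutrophil cytosolic proteins, out of 23337 genes counted. They were chosen by symbol, and their levels in a pair of DP libraries, replicates 4 and 5, against the other libraries were the reason for the choice. Those levels are therefore given as a description, with no test. The 10 genes comprise 4 early (azurophil) granule genes, Elane, Mpo, Prtn3 and Ctsg, 4 late granule genes, Lcn2, Ltf, Camp and Ngp, and 2 cytosolic genes, S100a8 and S100a9.

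The libraries came from Apoe-/- Cx3cr1GFP Cd11cYFP mice on the C57BL/6 strain, of both sexes, 7 months old, of which the last 5 months were on a Western diet. Loss of Apoe, a ligand for lipoprotein clearance, and this diet give the animals atherosclerosis, and all libraries shared them. GFP reports activity of Cx3cr1, a chemokine receptor carried by monocytes and by many macrophages. YFP reports Cd11c (Itgax), an integrin subunit of dendritic cells and many macrophages. Live CD45+ cells of digested aortas and carotid arteries were sorted into 4 subsets, DP (GFP+YFP+, n = 4), YFP (YFP alone, n = 5), GFP (GFP alone, n = 6) and DN (neither, n = 3). The labels do not give the zygosity of the reporters, the number of mice behind a library, or if each replicate was a different animal. The p-values below therefore reflect the variation among the libraries and nothing more, and that variation may be technical.

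Neutrophils are short-lived white cells that kill microbes with preformed proteins. During their maturation in the bone marrow, the genes of azurophil granule proteins are transcribed first, at the promyelocyte stage, and those of specific and gelatinase granule proteins later, at the myelocyte and metamyelocyte stages, while S100a8 and S100a9 transcripts remain abundant in mature cells. Circulating neutrophils carry the early proteins but little of the early transcripts. In bulk libraries, fewer cells of a type and less RNA per cell cannot be told apart.

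Total counts ranged from 289166 in YFP replicate 6 to 27742113 in YFP replicate 1, and between 13150 and 21972 genes had at least 1 count. Levels are given as CPM, counts scaled to a common library size, with library sizes adjusted by TMM over all 18 libraries. A floor of 3 reads corresponded to 8.96 CPM in YFP replicate 6 and to 0.0694 CPM in the library where it was lowest, and values below the floor rest on fewer than 3 reads. Ptprc, which encodes CD45, was present in every library, at 438.7 to 1248 CPM. Several libraries went against their sort labels. The libraries labelled DP replicates 4 and 5 had 9.43 and 0.427 CPM of Cx3cr1 and 38.6 and 47.8 CPM of Itgax, against 92.7 and 118 CPM of Cx3cr1 and 456 and 311 CPM of Itgax in DP replicates 1 and 2. The libraries labelled DN replicates 3 and 6 had 142 and 134 CPM of Cx3cr1, as high as GFP libraries (80.9 to 164.7 CPM), and 332 and 297 CPM of Itgax, above GFP libraries (107 to 191 CPM) and against 4.09 CPM of Cx3cr1 and 11.4 CPM of Itgax in DN replicate 1. The library labelled YFP replicate 6 had 104.5 CPM of Cx3cr1, within the range of GFP libraries, and 89.6 CPM of Itgax, below all of them. YFP replicates 3 and 4 had 60.74 and 60.01 CPM of Cx3cr1, against 0.93 CPM in YFP replicate 1. Itgax in YFP replicate 1, at 174.6 CPM, lay within the GFP range. Results that rest on DP replicates 4 and 5, DN replicates 3 and 6 or YFP replicate 6 are given with and without them. YFP replicates 1, 3 and 4 stayed in the fit that set aside YFP replicate 6 and DN replicates 3 and 6 together.

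Granule transcripts were concentrated in a few libraries, and most early genes were high in another library than most late genes. The early genes were highest in DP replicate 4, and Prtn3 was high in DP replicate 5 too. The late genes Lcn2, Camp and Ngp and the cytosolic pair were highest in DP replicate 5, and DN replicate 1 held the next highest levels of Lcn2, Ngp, S100a8 and S100a9 and the highest of Ltf. Of the 10 genes, 4 had their highest level of all 18 libraries in DP replicate 4, 5 in DP replicate 5 and 1 in DN replicate 1. Over all 17143 genes that passed the filter on low counts, 7.55% were highest in DP replicate 4, 15.1% in DP replicate 5 and 6.85% in DN replicate 1, and since the genes were chosen for these levels nothing is read from the comparison. Reads of the 10 genes made up 0.168% of all counts in DP replicate 4 (32689 reads), 0.917% in DP replicate 5 (161330 reads) and 0.246% in DN replicate 1 (60901 reads). In the other libraries they made up 0.054% or less. TMM set the effective size of DP replicates 4 and 5 and DN replicate 1 at 1.239, 0.533 and 1.75 times the total count, so folds between these libraries move with the scaling. In CPM of the raw total, folds of DP replicate 4 over DP replicate 5 were 2.33 times as large as those given below, and folds of DP replicate 5 over DN replicate 1 were 0.304 times as large.

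**Figure D1:**
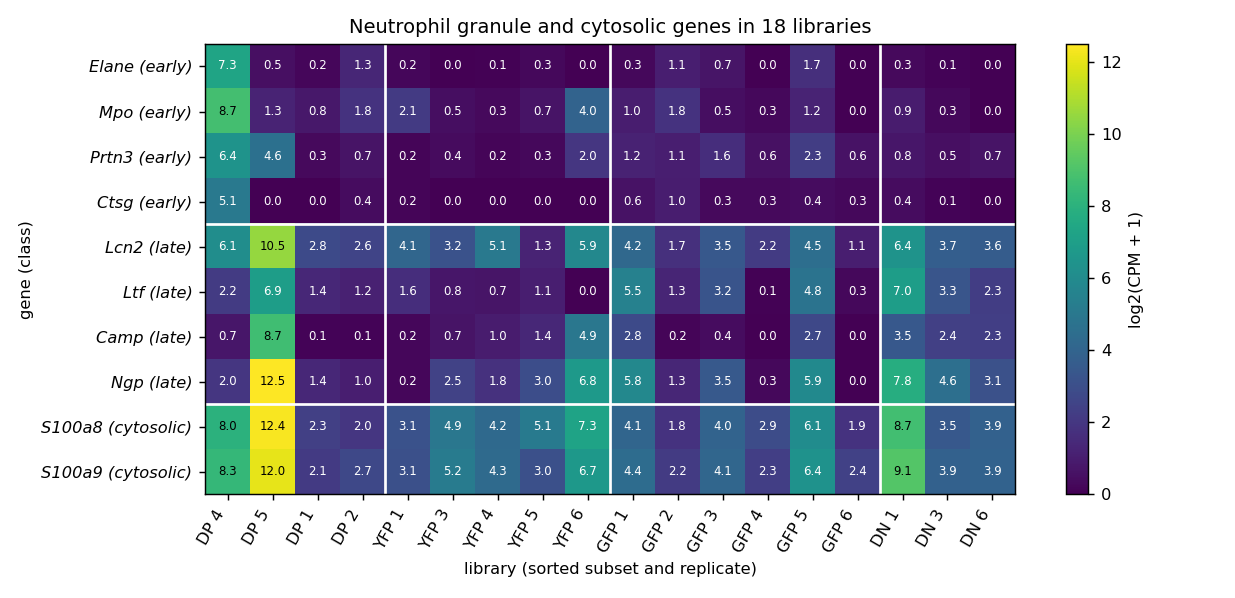
Levels of the 10 genes in the 18 libraries as log2(CPM + 1), 1 cell per gene (down the page, by class) and library (across, by sorted subset and replicate), with the value printed in the cell. The early genes stood out in DP replicate 4, the late genes in DP replicate 5 and DN replicate 1, and the cytosolic genes in all 3 of these libraries.

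The early genes encode the serine proteases of azurophil granules and the peroxidase stored with them. Elane encodes neutrophil elastase and lies on chromosome 10 (mm10, 79886247 to 79888215), only 3073 bases downstream of Prtn3, the gene of proteinase 3 (79874476 to 79883174). Mpo, the gene of myeloperoxidase, which makes hypochlorous acid, lies on chromosome 11 (87793581 to 87804413), and Ctsg, the gene of cathepsin G, on the minus strand of chromosome 14 (56099881 to 56102574). Mpo overlaps the antisense gene Gm11505 and Prtn3 overlaps Plppr3, and without a known strand setting reads of such partners cannot be told apart. Upstream sequence is shown for the 4 early genes because they moved together. All 10 genes matched the RefSeq promoter table (build GRCm38.p6), and the sequences below, 5′ to 3′ on the gene's strand, are the stretches of the 250 bases before the RefSeq start that hold no GENCODE exon. Capitals mark GAGGAAGT, a purine-rich core of the kind bound by ETS-family factors, which was searched on both strands after these windows had been read. It was present in 4 of the 10 windows, those of Elane, Mpo, Prtn3 and, on the minus strand, S100a8, and in 2.44% of 32851 windows of the same length. The windows are at chr10:79886062-79886246 (Elane, plus strand), chr11:87793534-87793580 (Mpo, plus strand), chr10:79879417-79879613 (Prtn3, plus strand) and chr14:56102575-56102824 (Ctsg, minus strand).
Elane: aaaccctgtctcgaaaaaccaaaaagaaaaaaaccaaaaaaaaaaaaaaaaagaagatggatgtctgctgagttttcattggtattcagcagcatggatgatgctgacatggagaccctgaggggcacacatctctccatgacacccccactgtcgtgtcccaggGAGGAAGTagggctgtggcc
Mpo: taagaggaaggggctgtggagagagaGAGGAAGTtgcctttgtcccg
Prtn3: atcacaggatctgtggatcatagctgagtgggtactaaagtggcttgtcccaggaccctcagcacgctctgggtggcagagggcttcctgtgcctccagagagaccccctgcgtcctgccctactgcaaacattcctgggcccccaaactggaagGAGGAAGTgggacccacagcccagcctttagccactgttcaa
Ctsg: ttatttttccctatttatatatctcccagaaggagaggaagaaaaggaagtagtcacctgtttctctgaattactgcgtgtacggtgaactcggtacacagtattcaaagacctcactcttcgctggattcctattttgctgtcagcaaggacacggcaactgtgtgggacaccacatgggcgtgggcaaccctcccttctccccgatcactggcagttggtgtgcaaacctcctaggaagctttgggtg

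Elane had 0.166, 1.55, 156 and 0.427 CPM in DP replicates 1, 2, 4 and 5. It had 0.147, 0, 0.063, 0.199 and 0 CPM in the 5 YFP libraries, 0 to 2.23 CPM with a median of 0.419 in GFP libraries, and 0.231, 0.0733 and 0 CPM in the 3 DN libraries. DP replicate 4 stood alone. Its level was 70.1-fold that of the next library, GFP replicate 5, and 366.5-fold that of DP replicate 5. The ranges of all 4 subsets overlapped.

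Mpo followed the same pattern, with 0.749, 2.52, 424.5 and 1.39 CPM in DP replicates 1, 2, 4 and 5. In YFP libraries it had 3.40, 0.38, 0.252, 0.598 and 14.9 CPM, in GFP libraries 0 to 2.59 CPM with a median of 0.708, and in DN libraries 0.902, 0.22 and 0 CPM. The second highest library, YFP replicate 6, had 5 reads, so its level had a large counting error. Apart from DP replicate 4, the subsets overlapped.

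Prtn3 differed from the other early genes in that DP replicate 5 was also high. Its levels were 0.249, 0.57, 83.2 and 23.6 CPM in DP replicates 1, 2, 4 and 5. YFP libraries had 0.122, 0.285, 0.126, 0.199 and 2.985 CPM, GFP libraries 0.479 to 3.86 CPM with a median of 1.18, and DN libraries 0.694, 0.44 and 0.587 CPM. DP replicate 4 exceeded DP replicate 5 by 3.53-fold, against 366.5-fold for Elane and 306.1-fold for Mpo. In CPM of the raw total these folds were 8.21, 852.2 and 711.9.

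Ctsg was the lowest of the early genes. It had 0, 0.325, 32.5 and 0 CPM in DP replicates 1, 2, 4 and 5, with 783 reads in replicate 4 and 0 in replicate 5. YFP replicate 1 had 0.122 CPM and the other YFP libraries had 0 reads, GFP libraries had 0.201 to 1.02 CPM with a median of 0.296, and DN libraries had 0.324, 0.0733 and 0 CPM. Every GFP library lay above every YFP library, but on few reads, with 4 to 15 in GFP and at most 5 in YFP libraries. In YFP replicate 6 the GFP levels would have given under 3 reads, so its 0 reads carry little weight.

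The late genes encode proteins of specific granules. Lcn2 encodes lipocalin 2, which binds bacterial siderophores (chromosome 2, 32384633 to 32388252). Ltf encodes lactoferrin, an iron-binding protein (chromosome 9, 111019271 to 111042767). Camp encodes the antimicrobial peptide cathelicidin (chromosome 9, 109847379 to 109849617), and Ngp the cystatin-related neutrophilic granule protein (chromosome 9, 110419747 to 110423012). Camp, Ngp and Ltf lie in a row on chromosome 9, with 570130 bases between Camp and Ngp and 596259 bases between Ngp and Ltf. Upstream sequence of Ltf and Ngp is shown beside that of the early genes. Capitals mark TTNNGNAA, a loose form of the sites bound by C/EBP factors, searched on both strands. It was present in the windows of 3 late genes (Lcn2, Ltf and Ngp) and of both cytosolic genes, in 0 of the 4 early ones, and in 36.8% of all 32851 windows, and its letters were also chosen with these windows in view. A match on the minus strand is shown as it reads on the printed strand, as both matches within the printed stretch of Ngp are, while a further plus-strand match of Ngp lies outside that stretch. The windows, both on the plus strand, are at chr9:111019042-111019270 (Ltf) and chr9:110419558-110419746 (Ngp).
Ltf: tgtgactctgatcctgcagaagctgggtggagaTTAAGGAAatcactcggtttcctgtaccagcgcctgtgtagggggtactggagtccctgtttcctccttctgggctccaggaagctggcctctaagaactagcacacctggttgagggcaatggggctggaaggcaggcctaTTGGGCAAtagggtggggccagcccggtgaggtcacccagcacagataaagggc
Ngp: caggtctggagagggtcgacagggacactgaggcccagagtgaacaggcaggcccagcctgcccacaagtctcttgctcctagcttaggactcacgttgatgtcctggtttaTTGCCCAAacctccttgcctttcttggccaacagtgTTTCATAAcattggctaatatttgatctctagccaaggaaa

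Ngp had the largest contrast of the late and cytosolic genes between DP replicates 5 and 4. It had 1.66, 1.06, 2.95 and 5742 CPM in DP replicates 1, 2, 4 and 5. YFP libraries had 0.171, 4.47, 2.39, 6.78 and 107.5 CPM, GFP libraries 0 to 59.2 CPM with a median of 5.95, and DN libraries 220.4, 22.5 and 7.63 CPM. DP replicate 5 was 1947-fold above DP replicate 4 and 26.1-fold above DN replicate 1, and DP replicates 1, 2 and 4 lay below all 3 DN libraries. In CPM of the raw total these folds were 837.1 and 7.93.

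Camp had 0.0832, 0.0814, 0.665 and 407.4 CPM in DP replicates 1, 2, 4 and 5, a 612.9-fold difference between replicates 5 and 4 that was 263.6-fold in CPM of the raw total. It had 0.147, 0.57, 0.945, 1.595 and 29.9 CPM in YFP libraries, 0 to 6.09 CPM with a median of 0.229 in GFP libraries, and 9.97, 4.105 and 4.04 CPM in DN libraries. The second highest value, in YFP replicate 6, rests on 10 reads. Outside it and DP replicate 5, no library reached 10 CPM.

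Lcn2 was the late gene with the broadest presence, and no library was at 0. It had 6.07, 4.88, 69.5 and 1475 CPM in DP replicates 1, 2, 4 and 5. YFP libraries had 16.7, 7.98, 32.6, 1.396 and 56.7 CPM, GFP libraries 1.10 to 21.5 CPM with a median of 6.71, and DN libraries 83.1, 12.1 and 11.4 CPM. It was the only late gene above 4 CPM in DP replicate 4, where the early genes were high, and DP replicate 5 exceeded that library by 21.2-fold, or by 9.12-fold in CPM of the raw total. All subsets overlapped.

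Ltf was the exception among the late genes, since DP replicate 5 and DN replicate 1 had nearly the same level. It had 1.58, 1.22, 3.57 and 121 CPM in DP replicates 1, 2, 4 and 5. YFP libraries had 2.13, 0.713, 0.63, 1.097 and 0 CPM, GFP libraries 0.0532 to 44.01 CPM with a median of 4.92, and DN libraries 123, 8.72 and 3.82 CPM. The near equality depends on the scaling. In CPM of the raw total Ltf was 64.7 in DP replicate 5 and 215.2 in DN replicate 1. All 5 YFP libraries lay below all 3 DN libraries. In YFP replicate 6 the levels of DN replicates 3 and 6 would have given under 3 reads, so its 0 reads carry little weight. The other 4 YFP libraries reached at most 2.13 CPM.

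S100a8 and S100a9 encode the calcium-binding subunits of calprotectin, the most abundant protein of the neutrophil cytosol, and lie 22597 bases apart on chromosome 3 (90668978 to 90670035 and 90692632 to 90695721). The upstream window of S100a8 is shown because it held matches to both letter patterns, ACTTCCTC being GAGGAAGT on the minus strand. It is at chr3:90668821-90668977 (plus strand).
S100a8: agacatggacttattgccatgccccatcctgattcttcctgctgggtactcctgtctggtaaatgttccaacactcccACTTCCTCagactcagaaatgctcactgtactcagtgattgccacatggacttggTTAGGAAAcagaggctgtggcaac

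S100a8 was high in 3 libraries. It had 4.08, 2.93, 262.5 and 5333 CPM in DP replicates 1, 2, 4 and 5. YFP libraries had 7.76, 29.7, 18.01, 34.2 and 152 CPM, GFP libraries 2.59 to 66.9 CPM with a median of 10.7, and DN libraries 411 CPM in replicate 1 but 9.97 and 13.7 CPM in replicates 3 and 6. The cytosolic genes were thus high in DP replicate 4 as well as in DP replicate 5 and DN replicate 1, where the late granule genes Ltf, Camp and Ngp were high only in DP replicate 5 and DN replicate 1 among these 3.

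S100a9 had 3.33, 5.53, 322 and 4104 CPM in DP replicates 1, 2, 4 and 5. It had 7.37, 36.2, 18.95, 7.28 and 101.5 CPM in YFP libraries, 3.55 to 81.35 CPM with a median of 10.5 in GFP libraries, and 558, 13.6 and 14.3 CPM in DN libraries. Its order of libraries at the top was that of S100a8. Per kb of exon, the level of S100a8 was 0.977 times that of S100a9 in DP replicate 5, 0.613 times in DP replicate 4 and 0.554 times in DN replicate 1. Over the other libraries this ratio ran from 0.398 in DP replicate 2 to 3.53 in YFP replicate 5.

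The balance of early and late granule transcripts was then read in each library on its own. Counts of each gene were divided by its exon length, and the early share is the sum of the early genes over the sum of all 8 granule genes. The early share was 92.2% in DP replicate 4, where early genes summed to 362.4 CPM per kb and late genes to 30.8. It was 0.247% in DP replicate 5, where early genes summed to 14.45 and late genes to 5834 CPM per kb. In DN replicate 1 it was 0.463%, with sums of 1.21 and 260.9 CPM per kb. Of raw counts, the early share was 90.1% (95% Wilson interval 89.6 to 90.5) in DP replicate 4, 0.327% (0.288 to 0.371) in DP replicate 5 and 0.49% (0.4 to 0.6) in DN replicate 1. Reads carry no molecular identifiers, so the intervals cover counting error only. Most granule reads were thus of early genes in DP replicate 4 and of late genes in the other 2 libraries.

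The other 16 libraries had early shares of 0.463% to 56.3% with a median of 6.13%. DP replicates 1 and 2 stood at 11.1% and 48.1%, YFP libraries at 15.4%, 3.47%, 1.31%, 5.475% and 3.92%, GFP libraries between 2.38% and 56.3% with a median of 20.6%, and DN libraries at 0.463%, 1.475% and 1.95%. Besides DP replicate 4, only GFP replicates 2 and 6 exceeded 50%, and they did so on few reads, with 85 early and 79 late reads in GFP replicate 2 and 14 early and 26 late reads in GFP replicate 6. Libraries numbered 1 and 2 had a median early share of 13.3% and those numbered 3 to 6 one of 4.70%.

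**Figure D2:**
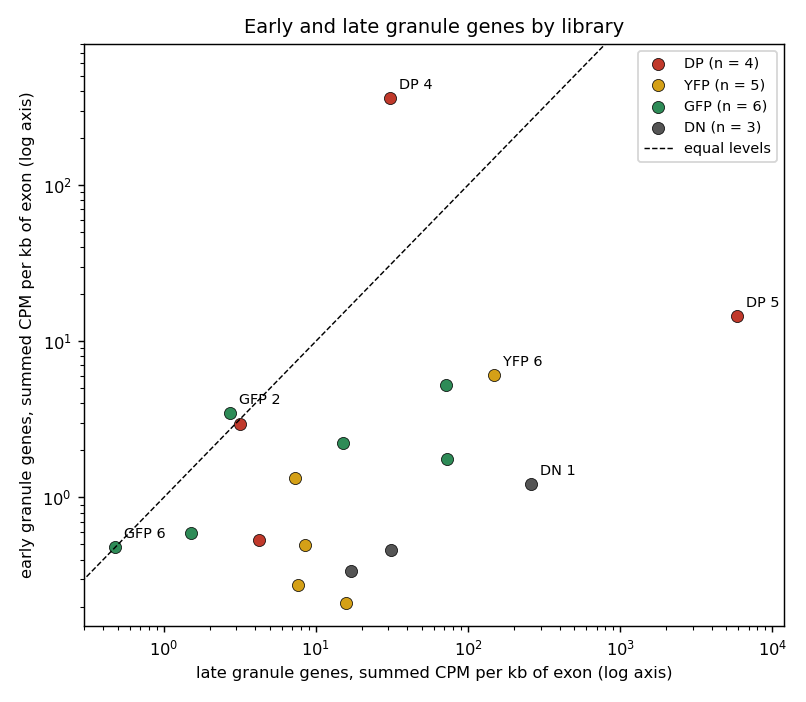
Summed levels of the 4 early genes (y axis) against the 4 late genes (x axis) in each of the 18 libraries, in CPM per kb of exon on log axes, coloured by subset. DP replicate 4 lay far above the line of equal levels and DP replicate 5 and DN replicate 1 far below it.

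The make-up of the granule transcripts also differed within each class. Per kb of exon, Elane gave 40.4% of the summed level of the 8 granule genes in DP replicate 4, Mpo 31.5%, Prtn3 12.2%, Ctsg 8.01% and Lcn2 6.74%, and each other late gene gave under 1%. In DP replicate 5 Ngp alone gave 80.35%, Lcn2 9.62%, Camp 9.19% and Ltf 0.602%. DN replicate 1 had Ngp at 68.8%, Ltf at 13.6%, Lcn2 at 12.1% and Camp at 5.02%. Ngp was therefore the leading gene in both of these libraries, while Ltf held a larger share in DN replicate 1 than in DP replicate 5 and Camp a smaller one. In YFP replicates 1 and 4 Lcn2 led, with 73.6% and 77.6%.

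**Figure D3:**
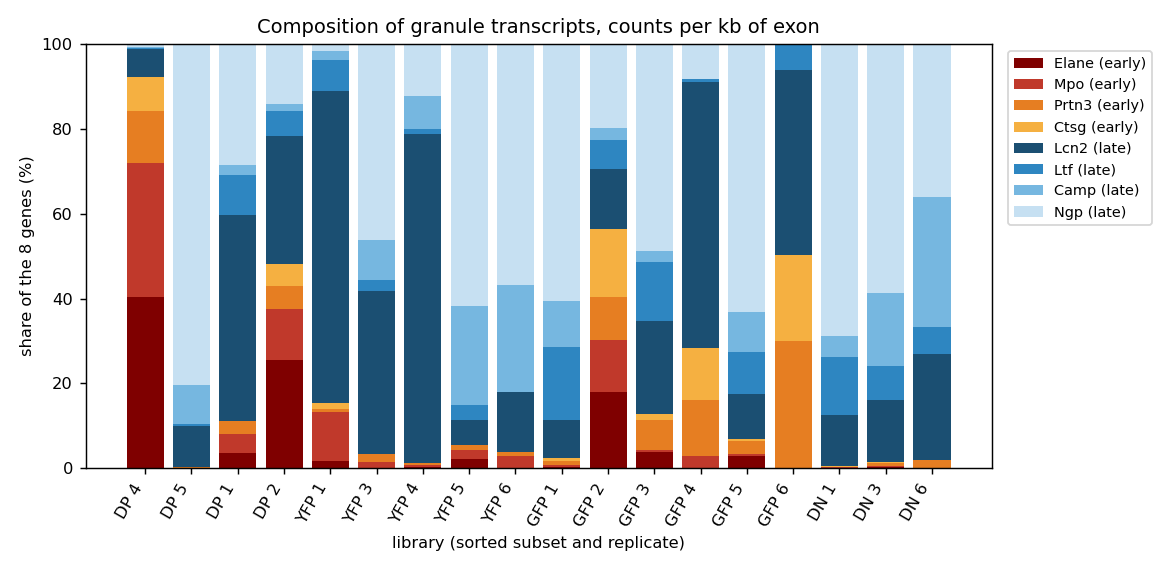
Share of each of the 8 granule genes in their summed level per kb of exon (y axis, %), 1 bar per library, early genes in red to orange and late genes in blue. Early genes fill most of the bar of DP replicate 4, and Ngp, the palest blue, most of the bars of DP replicate 5 and DN replicate 1.

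Other genes of the neutrophil stages, from lists chosen by known function, were read in the same libraries. Of 13 other primary granule or promyelocyte genes, 2 were highest in DP replicate 4, 6 in DP replicate 5 and 1 in DN replicate 1. Of 21 other late granule or secretory genes these numbers were 1, 9 and 1, and of 21 mature neutrophil genes they were 4, 10 and 5. Over all filtered genes the shares highest in these libraries were 7.55%, 15.1% and 6.85%. The list counts were made without that filter and so include genes on few reads. Among the mature genes, BC100530 counted for DP replicate 4 on 2 reads. Stfa1 and Stfa3 counted for DN replicate 1 on 26 and 16 reads. The counts of DN replicate 1 in the primary and late lists, and of DP replicate 4 in the late list, were near these shares. Mature genes did not move as 1 group. In DP replicate 5, Fpr2 and Mmp25, at 0.213 and 0.747 CPM, were below the medians of 2.18 and 2.61 CPM over the libraries other than DP replicates 4 and 5, while others were far above theirs. Retnlg, which encodes a resistin-like secreted protein, had 1.41, 1.06, 1315 and 21410 CPM in DP replicates 1, 2, 4 and 5, against 171, 7.70 and 19.1 CPM in DN replicates 1, 3 and 6. G0s2, which encodes an inhibitor of triglyceride breakdown, had 2.91, 4.72, 238.5 and 4901 CPM in DP replicates 1, 2, 4 and 5, against 196, 6.52 and 9.54 CPM in DN libraries. Slpi, a protease inhibitor, had 270.1 and 3298 CPM in DP replicates 4 and 5, against 389.5 CPM in DN replicate 1. All 3 were highest in DP replicate 5, as the cytosolic pair was.

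Some stage genes, named here after their values were seen, tracked 1 library. Ms4a3, a marker of granulocyte and monocyte progenitors, had 10.2 CPM in DP replicate 4, 0 reads in DP replicate 5 and DN replicate 1, and at most 1.03 CPM elsewhere. Olfm4, a specific granule gene, had 9.35 CPM in DP replicate 4, 0 reads in DP replicate 5 and 1.67 CPM in DN replicate 1. Fcnb, which encodes a ficolin of early neutrophil precursors, had 4.78 CPM in DP replicate 4, 44.3 CPM in DP replicate 5 and 1.11 CPM in DN replicate 1. Stage genes did not all sort with their class. Of the 13 genes in the list of Ms4a3, 2 were highest in DP replicate 4 and 6 in DP replicate 5. Prss57 of that list, also named after its values were seen, had 1.25 CPM in DP replicate 4 and 0.107 CPM in DP replicate 5. Its highest level was 7.69 CPM, in YFP replicate 1. Padi4, the enzyme that citrullinates histones in activated neutrophils, had 124 and 319.5 CPM in DP replicates 4 and 5 and 33.97 CPM in DN replicate 1. Csf3r, the receptor of the neutrophil growth factor G-CSF, varied far less, with 269 and 95.2 CPM in DP replicates 4 and 5 and 276 CPM in DN replicate 1. The transcripts with the highest means in the late list, such as Lyz2 (lysozyme), with 3408 and 37440 CPM in DP replicates 4 and 5 and 788 CPM in DN replicate 1, are also made by macrophages.

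**Figure D4:**
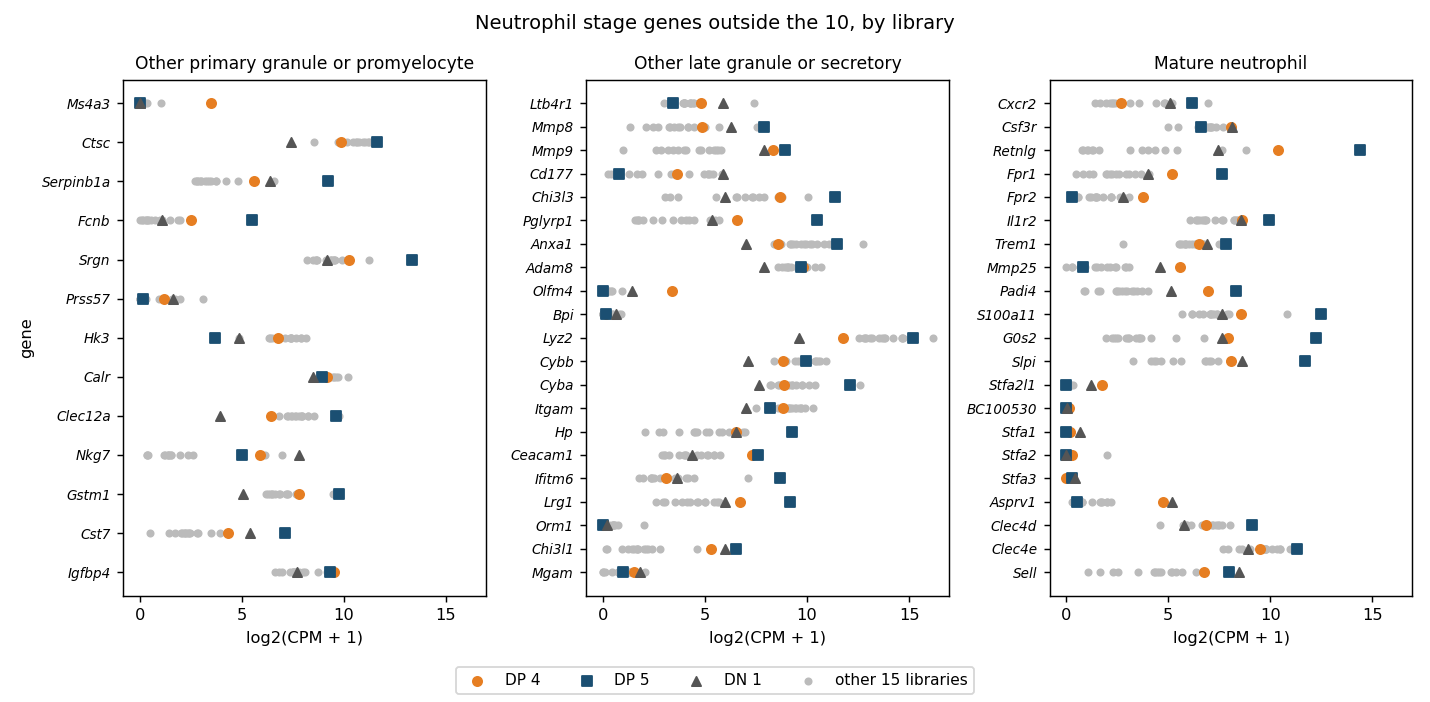
Levels of other neutrophil stage genes as log2(CPM + 1) (x axis), 1 row per gene in 3 panels by list, with DP replicate 4 in orange, DP replicate 5 in blue, DN replicate 1 as dark triangles and the other 15 libraries in grey. Retnlg, G0s2 and Padi4 were high in both DP libraries, whereas Ms4a3 and Olfm4 were high in DP replicate 4 alone.

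Markers of other cell types moved with the same libraries. For the counts here and in the next paragraph, 7.55% of all filtered genes were highest in DP replicate 4. For DP replicate 5 and DN replicate 1 these shares were 15.1% and 6.85%. Counts for the lists were again made without the filter on low counts. The mast cell and basophil list summed to 8.89 and 10130 CPM in DP replicates 4 and 5, with a range of 2.91 to 10130 CPM in DP, 3.80 to 322.4 in YFP, 5.45 to 195 in GFP and 1.39 to 4.95 in DN libraries, and 7 of its 9 genes were highest in DP replicate 5. The eosinophil list summed to 425.5 and 4297 CPM in DP replicates 4 and 5, against 8.98 and 14.2 CPM in DP replicates 1 and 2, and ranged from 15.2 to 164 CPM in YFP, 6.69 to 12.97 in GFP and 6.31 to 39.7 in DN libraries. Of its 7 matched genes 6 were highest in DP replicate 5, whereas in DP replicate 4 Prg3 was at 0 reads and Epx at 0.166 CPM. In DP replicate 4 most of the eosinophil sum came from Ccr3, a chemokine receptor, at 267.8 CPM, and from Siglec5 at 93.96 CPM. DP replicate 5 thus carried granule genes of mast cells and eosinophils together with those of neutrophils. Of the mast cell and basophil list, Ms4a2 and Mcpt8 had 0 reads in DP replicate 5. In the platelet list Pf4, which encodes platelet factor 4, gave 4079 of 4093 CPM in DP replicate 5.

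In DP replicate 4 the fibroblast list summed to 11670 CPM and the smooth muscle list to 2270 CPM, against 5613 and 2809 CPM in DP replicate 5 and 1219 to 3882 and 116.5 to 287 CPM in DP replicates 1 and 2. The fibroblast list ranged from 850.8 to 10570 CPM in YFP, 241 to 1051 in GFP and 2131 to 4302 in DN libraries, and 3 of its 8 genes were highest in DP replicate 4. In DN replicate 1 the T cell list summed to 1286 CPM and the B cell list to 1220 CPM, against at most 20.6 and 13.8 CPM in the other DN libraries, and all 7 matched T cell genes and 7 of 8 B cell genes were highest in it. Its macrophage list stood at 676.5 CPM, the lowest of all libraries, against 14040 and 23540 CPM in DN replicates 3 and 6. In DP replicates 1, 2, 4 and 5 the macrophage list summed to 11460, 12530, 5502 and 37140 CPM. The T cell list summed to 311 and 86.2 CPM in DP replicates 4 and 5. In DP replicate 5 Cd247 gave 77.2 CPM of this sum, and Cd3e and Cd3g were at 0 reads. The erythroid list summed to at most 18.3 CPM. Its 4 matched hemoglobin genes were listed at 0 in all 18 libraries, so this sum holds no hemoglobin reads. Whether reads of these genes could be counted here was not tested. The part that these cell types had in the granule transcript levels was not tested.

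YFP replicate 6, the shallowest library with 289166 counts, held small amounts of several of these transcripts. Its levels were 3.845% of those in DP replicate 5 for Lcn2 (19 reads), 7.33% for Camp (10 reads), 1.87% for Ngp (36 reads), 2.855% for S100a8 (51 reads) and 2.47% for S100a9 (34 reads). Ltf had 0 reads. For Mpo it stood at 3.52% of the level in DP replicate 4, on 5 reads, and for Prtn3 at 3.59% on 1 read. The mast cell genes Cma1 and Cpa3 stood at 3.38% and 3.07% of DP replicate 5, and the eosinophil gene Prg2 at 2.57%. The genes named here other than Ltf were thus at between 1.87% and 7.33% of the library in which they were highest, and the source of these reads was not tested.

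Over subsets, DP had the highest mean of 9 of the 10 genes and DN of Ltf, but the DP mean rested on replicates 4 and 5, and the DP SD exceeded the mean for all 10 genes. Elane averaged 39.6 ± 77.8 CPM in DP (SD, n = 4), 0.0819 ± 0.0892 in YFP (n = 5), 0.694 ± 0.864 in GFP (n = 6) and 0.102 ± 0.118 in DN (n = 3). Ngp averaged 1437 ± 2870 CPM in DP, 24.3 ± 46.6 in YFP, 21.1 ± 28.2 in GFP and 83.5 ± 119 in DN. S100a9 averaged 1109 ± 2003 CPM in DP, 34.3 ± 39.4 in YFP, 21.7 ± 30.1 in GFP and 195 ± 314 in DN. When the 4 subsets were ordered by mean for each gene, 1 of the 30 pairs of neighbours differed by more than the larger of their SDs. It was GFP and DN for Camp, at 2.01 ± 2.94 and 6.04 ± 3.40 CPM, and the ranges of all 30 pairs overlapped.

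The median log2 difference over the 10 genes, from subset means plus 1 CPM, was 5.17 for DP over GFP, 4.28 for DP over YFP and 3.64 for DP over DN. Without DP replicate 5 these were 2.27, 1.27 and -0.54, and without DP replicate 4 they were 3.67, 4.27 and 2.67. Without DP replicate 5 the differences of DP over DN were -4.87 for Ngp, -3.89 for Ltf and -2.46 for Camp, while those of Elane and Mpo were 5.61 and 6.71. Without DP replicate 4 the differences of DP over GFP were 0.02 for Elane and 0.4 for Mpo, while that of Ngp was 6.44. The DP differences of the early genes other than Prtn3 thus rested mainly on replicate 4, and those of Camp and Ngp on replicate 5. Without DP replicate 5 Lcn2 stayed above 0 over GFP (1.44) and YFP (0.21) but not over DN (-0.39). Without that library Ltf stood at 0.71 over YFP and at -2.21 over GFP. For Ltf the difference of DP over DN was -0.49 with TMM and -2.0 in CPM of the raw total.

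Whether the genes differed between the other 3 subsets was tested without the DP libraries, on which the choice of genes rested. The edgeR quasi-likelihood test over 16624 genes in 14 libraries, with Benjamini-Hochberg adjustment, called 0 of the 10 genes in any comparison, and all 10 had passed the filter on low counts. Between YFP and GFP 0.018% of all genes were called (3 genes), and between GFP and DN and between YFP and DN 0% were. At an unadjusted p below 0.05, 2 of the 10 genes passed in each comparison, beside 8.97% of all genes for YFP versus GFP, 1.69% for GFP versus DN and 3.77% for YFP versus DN. The smallest adjusted p among the 10 was 0.433 for YFP versus GFP, 1 for GFP versus DN and 0.999 for YFP versus DN. The common dispersion was 0.806, so that replicates of a subset varied widely, and no p above the threshold shows that levels were alike.

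Between YFP and GFP, Ltf had a log2 fold change of -3.59 ± 1.33 (SE; edgeR, unadjusted p = 0.0141, adjusted p = 0.433) and Ctsg one of -3.37 ± 1.55 (unadjusted p = 0.0427, adjusted p = 0.535). The other early proteases Elane and Prtn3 had -2.74 ± 1.66 and -2.34 ± 1.20, whereas Mpo had 1.71 ± 1.37. Of the 10 genes 5 had fold changes above 0 and 5 below, with a median of 0.23, beside 0.06 over all genes. In Ctsg the ranges of YFP and GFP libraries did not overlap, which held for 0.602% of all genes in the same direction and for 0.259% in the other. DESeq2 called 0 of the 10 genes and 1.57% of all genes in this comparison, and edgeR with the replicate number as a block called 0 of the 10 and 0.012% of all genes. Without YFP replicate 6 and DN replicates 3 and 6, which went against their labels, 0 of the 10 genes were called, Ltf stood at -3.53 ± 1.33 and Prtn3 at -3.05 ± 1.14, and Ngp at -2.62 ± 1.44, against -0.08 ± 1.5 with all 14 libraries.

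Between GFP and DN the classes fell on opposite sides of 0. All 4 early genes had fold changes above 0, with a median of 1.51, and all 4 late and both cytosolic genes had fold changes below 0, with medians of -1.85 and -3.09, beside 0.04 over all genes. The early values rest on few reads per library, 0 to 41 for Elane, 0 to 39 for Mpo, 6 to 71 for Prtn3 and 0 to 15 for Ctsg. Their unadjusted p-values in edgeR were 0.183, 0.433, 0.246 and 0.332, so their side of 0 is uncertain. None of the 10 genes had ranges that did not overlap between GFP and DN, which 0.65% of all genes had with GFP higher and 0.866% with GFP lower. S100a9 had -3.18 ± 1.11 (edgeR, unadjusted p = 0.00987, adjusted p = 1) and S100a8 -3.00 ± 1.09 (unadjusted p = 0.0126, adjusted p = 1). These values rested on DN replicate 1. Without it S100a8 stood at 0.61 ± 1.14, S100a9 at 0.62 ± 1.15, Ltf at 1.07 ± 1.49 and Ngp at 0.47 ± 1.87, and within libraries numbered 3 to 6 these 4 genes likewise lay above 0. Without DN replicates 3 and 6 and YFP replicate 6 the values were -4.48 ± 1.03 for S100a8 and -4.67 ± 1.06 for S100a9, with an adjusted p of 0.163 each.

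Between YFP and DN, Ltf had a log2 fold change of -5.35 ± 1.5 (edgeR, unadjusted p = 0.0021, adjusted p = 0.999) and S100a9 one of -2.64 ± 1.19 (unadjusted p = 0.0389, adjusted p = 0.999). Of the 10 genes 9 lay below 0, with a median of -1.30 beside 0.07 over all genes, and Mpo lay above 0 with 2.95 ± 1.79. All YFP libraries were below all DN libraries in Ltf, which held for 0.746% of all genes, and 0.235% had the opposite order. DESeq2 called Ltf in this comparison, at -5.40 ± 1.36 with an adjusted p of 0.0477, and called 0.114% of all genes. Leaving out 1 library at a time reversed the sign of Elane in 3 fits and of Camp in 2, so their side of 0 is uncertain. The sign of 6 of the 9 differences below 0 reversed without DN replicate 1. Without it S100a9 stood at 1.14 ± 1.22, S100a8 at 1.89 ± 1.26, Lcn2 at 0.83 ± 1.16, Ngp at 0.36 ± 1.96, Camp at 0.08 ± 2.01 and Elane at 1.26 ± 2.25, while Ctsg and Prtn3 stayed below 0 at -0.06 ± 3.39 and -0.83 ± 1.4. Without DN replicate 1 the Ltf difference was -2.53 ± 1.39, and without YFP replicate 6 and DN replicates 3 and 6 it was -6.71 ± 1.76 with an adjusted p of 0.217.

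Within libraries numbered 1 and 2, which comprise GFP replicates 1 and 2, YFP replicate 1 and DN replicate 1, the same edgeR test called 1 of the 10 genes for YFP versus GFP (7.30% of all genes), 3 for GFP versus DN (9.86%) and 4 for YFP versus DN (8.37%). The spread in this fit came from both GFP libraries, and the lone YFP and DN libraries were assumed to vary like them. For YFP versus GFP the gene was Camp, with a log2 fold change of -4.40 ± 1.28 (edgeR, adjusted p = 0.0304). That call rested on GFP replicate 1, since Camp was at 0.147 CPM in YFP replicate 1, against 6.09 and 0.137 CPM in GFP replicates 1 and 2. In GFP versus DN the genes were Lcn2, S100a8 and S100a9, with log2 fold changes of -3.11 ± 0.56, -5.49 ± 0.64 and -5.58 ± 0.66, and in YFP versus DN they were these 3 and Camp, all below 0. The calls compare single libraries, 1 YFP and 1 DN library, and not the subsets. Within libraries numbered 3 to 6, 9 of the 10 genes passed the filter and 0 were called, and 0% of all genes were called in each comparison.

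**Figure D5:**
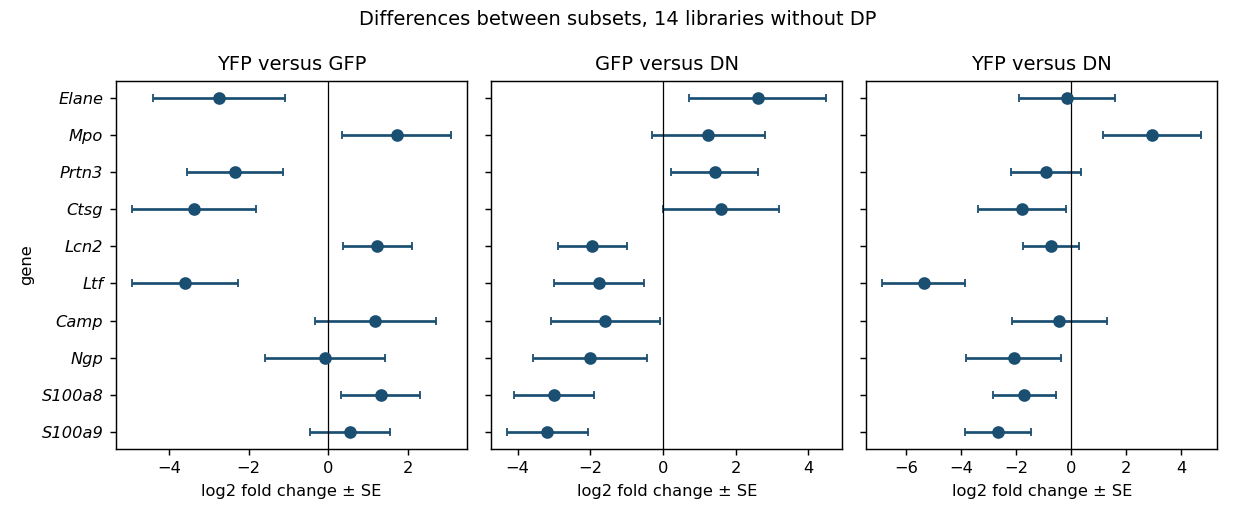
Log2 fold changes of the 10 genes (points, x axis, with bars of ± 1 SE) in YFP versus GFP, GFP versus DN and YFP versus DN, from the edgeR fit over 14 libraries without DP. In GFP versus DN the 4 early genes, on few reads, lie to the right of 0 and the late and cytosolic genes to its left. None of the 10 genes was called.

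Genes of the other lists were not called either. In the 3 tested comparisons 0 of the 12 tested primary granule or promyelocyte genes, 0 of 19 late granule or secretory genes and 0 of 16 mature neutrophil genes passed, and for GFP versus DN their median log2 fold changes were 0.04, 0.09 and -0.30. The 13 matched granulocyte transcription factors had a median of 0.19. Cebpb, which encodes a C/EBP factor of myeloid cells, had the highest mean level of them, with 1389 and 6590 CPM in DP replicates 4 and 5, against 412 CPM in DN replicate 1. Other C/EBP genes of the list, named after their values were seen, differed in direction. In DP replicates 4 and 5 and DN replicate 1, Cebpd had 125, 475 and 27.5 CPM. Cebpa had 13.6, 2.45 and 2.17 CPM there, and Cebpe had 1.91, 0 and 0.439 CPM. Gfi1, a repressor needed for neutrophil maturation that was named after its values were seen, had 13.04 and 0.533 CPM in DP replicates 4 and 5 and 30.6 CPM in DN replicate 1.

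The genes whose levels were most like those of the early genes over the 18 libraries, by Pearson correlation of log2(CPM + 1) with the mean of the 4 early genes, were Dmp1 (r = 0.941), Cyp26a1 (0.91), Igfbp3 (0.903), Pla2g3 (0.873), Chst13 (0.864), Rgs5 (0.856), Alox12e (0.855) and Ldb3 (0.824). All 8 were highest in DP replicate 4, Dmp1 at 222.9 CPM against at most 5.97 elsewhere. Those most like the late genes were Sh2d1a (r = 0.833), Mrgpra2b (0.813), G0s2 (0.812), Ypel2 (0.806), Fcnb (0.806), Itgb2l (0.804), Dapk2 (0.799) and Ica1 (0.798), and all 8 were highest in DP replicate 5. The correlation is over 18 libraries that differ in depth and sort, and each set had its highest level in 1 library. Without DP replicates 4 and 5, 0 of the 8 genes for the early pattern and 2 of the 8 for the late pattern were again among the 8 most alike.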

How the data were processed

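Whole-transcriptome libraries were made from sorted cells with SMART-seq v4 and Nextera XT and sequenced on a HiSeq4000, per the labels' protocols. The authors deposited whole-number read counts per gene for 18 libraries. TopHat 1.4.1, SAMtools, HTSeq 0.7.1 and the build mm10 are named in the submitters' processing notes, and the annotation and strand setting are not given in the sources used here. Low-input amplification without molecular identifiers leaves PCR copies in the counts.

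From these counts, CPM were computed with TMM library sizes (edgeR 4.0.16 in R 4.3.3), and levels per kb with GENCODE exon lengths. Tests used edgeR's quasi-likelihood fit with Benjamini-Hochberg adjustment at 0.05 after the filter on low counts, over the 14 GFP, YFP and DN libraries and without a replicate block, and scripts were tested on simulated data. DESeq2 1.42.0, limma 3.58.1, RLE scaling, no filter, all 18 libraries, library number ranges, a replicate block and leaving out each library were alternatives. Setting aside YFP replicate 6 and DN replicates 3 and 6 together was added after the data had been seen. The 10 genes, the 18 other gene lists (180 of 192 entries matched) and the motif letters were chosen with earlier results of these data known. Beside the 10 genes, the text names the 6 genes of highest mean level in a list and the 8 genes most like each pattern (10982 genes with at least 10 CPM in 1 library), and says where a gene was chosen after its values were seen; marker genes are named as the values beside a result. No 2 libraries of the same subset were duplicates (the lowest chi-square between replicates was 16.4 times its degrees of freedom). That lowest value was for YFP replicates 1 and 6, the latter the shallowest library. Libraries of different subsets were not compared in this way. Of replicate numbers shared by GFP and DN, same-numbered libraries deviated together (r = 0.57, 0.60 and 0.67). Some pairs with different numbers were about as high (0.61 for GFP replicate 2 and DN replicate 1, 0.56 for GFP replicate 4 and DN replicate 3). GFP replicate 5 and DN replicate 6 had 0.62. YFP replicates 1, 3, 4 and 5 each correlated most with the GFP library of the same number (r = 0.51, 0.48, 0.52 and 0.41). Their highest r with another GFP number was 0.46, 0.39, 0.38 and 0.19. For YFP and GFP replicates 6 the r was -0.02. The main test did not model a shared number. The block changed no call of the 10 genes.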

Additional observations from a re-analysis of the deposited data

Results flagged for a closer look

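In 8 of 30 groups of 4 to 6 libraries, 1 library stood further from the others than Dixon's 95% critical value on log2(CPM + 1), where chance gives about 1 in 20. The 5 among DP libraries are levels for which the genes were chosen, so that rate has no bearing on them and they are a description, with no test. In DP replicate 4, Elane was at 156.4 CPM against 0.166 to 1.55 in the other DP libraries, Mpo at 424.5 against 0.749 to 2.52, and Ctsg at 32.52 against 0 to 0.325. In DP replicate 5, Camp was at 407.4 CPM against 0.0814 to 0.665 in the other DP libraries, and Ngp at 5742 against 1.06 to 2.95. In YFP replicate 6, Prtn3 was at 2.985 CPM, on 1 read, where the rest of the YFP libraries had 0.122 to 0.285, and Camp was at 29.85, on 10 reads, where they had 0.147 to 1.595. Ctsg in YFP replicate 1 was at 0.1224 CPM where the other YFP libraries had 0 reads, so that any read there would have stood apart.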

How the results depend on the processing

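Depth limits the low values, since 3 reads equal 8.96 CPM in YFP replicate 6 and the early genes outside DP replicate 4 rest on 0 to 221 reads. No call of the 10 genes was made with 14 libraries in edgeR. For YFP versus GFP the 3 genes called over all genes became 261 with DESeq2, 412 with limma voom, 1 with RLE, 41 with no filter, 0 with all 18 libraries, 0 in libraries numbered 3 to 6, 1386 in those numbered 1 and 2, 25 without the 3 libraries that went against their labels, 2 with the replicate block and 0 to 41 when 1 library was left out (41 without YFP replicate 6, 9 without YFP replicate 3). For GFP versus DN they were 1 with voom and 1872 in libraries numbered 1 and 2, and for YFP versus DN 19 with DESeq2 and 1589. Of the 10 genes, 1, 3 and 4 were called in libraries numbered 1 and 2, and 1 (Ltf) with DESeq2 for YFP versus DN. Signs reversed for YFP versus GFP in Camp (-4.40 in libraries numbered 1 and 2, -1.32 without the 3 libraries), Ngp (0.33 DESeq2, 0.87 voom, 0.11 RLE, 0.73 replicate block, 0.74 numbered 3 to 6), S100a8 (-0.26 numbered 1 and 2) and S100a9 (-0.70 numbered 1 and 2, -0.31 without the 3 libraries). For GFP versus DN in libraries numbered 3 to 6 they reversed in Ltf (0.45), Ngp (0.18), S100a8 (0.92) and S100a9 (0.90). For YFP versus DN there they reversed in Camp (0.62), Elane (0.92), Lcn2 (1.04), Ngp (0.92), S100a8 (2.32) and S100a9 (1.55), and also with DESeq2 in Elane (0.46) and with voom in Elane (0.02), Lcn2 (0.02), S100a8 (0.33) and S100a9 (0.12). When 1 library was left out, YFP versus GFP ranged from -1.33 to 1.97 for Camp, -2.62 to 0.58 for Ngp and -0.31 to 1.69 for S100a9. GFP versus DN ranged from -2.65 to 1.07 for Ltf, -2.65 to 0.47 for Ngp, -4.10 to 0.61 for S100a8 and -4.33 to 0.62 for S100a9. YFP versus DN ranged from -2.91 to 0.08 for Camp, -0.72 to 1.26 for Elane, -1.28 to 0.83 for Lcn2, -4.62 to 0.36 for Ngp, -2.70 to 1.89 for S100a8 and -3.49 to 1.14 for S100a9. The median DP difference ranged from 2.27 to 5.58 over GFP, 1.27 to 4.68 over YFP and -0.54 to 4.06 over DN. Leaving out Ngp, the early share of DN replicate 1 was 1.48%. The cause of these changes was not tested. The replicate block called 0 of the 10 genes in each comparison. Same-numbered libraries correlated at -0.02 to 0.52 for YFP and GFP and at -0.09 to 0.49 for YFP and DN.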
